A study of Mus musculus with 6 samples.

Results

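The mitochondrial ribosomal protein genes are the nuclear genes that encode the protein subunits of the ribosome inside mitochondria. They were taken as every protein-coding row of the deposited table whose symbol is Mrpl or Mrps followed by a number and at most 1 letter. This gave 78 genes of the 30071 in the table, 49 named Mrpl for the large subunit and 29 named Mrps for the small subunit. The data were 6 poly(A)-selected RNA-seq libraries of MC3T3-E1, a mouse line of pre-osteoblasts. In 3 libraries the cells grew on nano/microstructured PEEK (polyetheretherketone, a polymer used for bone implants) together with supernatant of RAW264.7, a mouse macrophage-like line. In the other 3 libraries they grew on the same PEEK surface alone. All 6 libraries thus share the line and the surface, which limits them as a model of bone. What the RAW264.7 cells were grown on, how much supernatant was added and for how long were points not given in the sources used here. The total count was 74927500 to 80861720 per library with supernatant and 76895736 to 82803173 on PEEK alone.

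Mitochondria keep a small genome whose messenger RNAs encode core subunits of the respiratory chain and of ATP synthase. These messages are translated by a separate ribosome, the mitoribosome, whose RNA parts come from the mitochondrial genome and whose proteins are all made in the cytosol from nuclear genes and imported. Many of these proteins have a counterpart in bacterial ribosomes, and others are found in the ribosomes of mitochondria but not in those of bacteria. In osteoblasts, mitochondrial respiration is a source of energy beside glycolysis.

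By their known roles, 30 of the 78 encode large-subunit proteins with a bacterial counterpart and 21 encode large-subunit proteins specific to mitochondria. A further 16 encode small-subunit proteins with a bacterial counterpart and 10 encode small-subunit proteins specific to mitochondria. Mrps30 and Mrps18a carry small-subunit names, but their proteins sit in the large subunit and are counted there. Mrps36 is named for the mitoribosome, but its protein is assigned to the oxoglutarate dehydrogenase complex, and it is kept apart. The Gene Ontology column of the deposited table places all 78 in the mitochondrion. The genes lie on 17 chromosomes, with 11 of them on chromosome 11 and 8 on chromosome 17.

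Promoter sequences are shown for 6 of the genes, since the genes are dispersed over the genome and can be compared by the letters their promoters share. RefSeq promoters of build GRCm38.p6, each a window of 300 bases that lies mostly upstream of the start of transcription, matched 69 of the 78 genes and gave 75 promoters. Below are the 100 bases just upstream of the start, 5′ to 3′ on the gene's strand. Mrps14 and Mrps30 were taken because they had the smallest p in each direction, and Mrpl22, Mrpl32, Mrpl17 and Mrps27 as examples of motif matches, chosen after the matches were seen. Capitals mark the letters GCATGCGC (a core of the sites of Nrf1, nuclear respiratory factor 1) or CCGGAAG (a core of the sites of the ETS family, to which Gabpa, nuclear respiratory factor 2, belongs), on either strand.
Mrps14, chr1:160195115-160195214, plus strand: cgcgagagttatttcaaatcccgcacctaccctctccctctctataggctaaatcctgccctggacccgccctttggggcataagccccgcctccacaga
Mrps30, chr13:118387253-118387352, minus strand: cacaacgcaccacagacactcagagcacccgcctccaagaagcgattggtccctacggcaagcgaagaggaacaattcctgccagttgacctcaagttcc
Mrpl22, chr11:58171564-58171663, plus strand: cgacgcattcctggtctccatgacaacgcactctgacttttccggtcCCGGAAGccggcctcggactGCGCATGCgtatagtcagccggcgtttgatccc
Mrpl32, chr13:14613038-14613137, minus strand: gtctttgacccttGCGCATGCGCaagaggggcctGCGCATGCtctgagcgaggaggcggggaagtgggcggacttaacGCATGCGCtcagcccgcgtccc
Mrpl17, chr7:105811088-105811187, minus strand: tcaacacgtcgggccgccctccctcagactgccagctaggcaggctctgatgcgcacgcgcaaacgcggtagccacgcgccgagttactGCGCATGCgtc
Mrps27, chr13:99344686-99344785, plus strand: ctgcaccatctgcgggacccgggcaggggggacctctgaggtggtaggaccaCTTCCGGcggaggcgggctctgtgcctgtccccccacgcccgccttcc
The stretches of Mrps14 and Mrps30 hold neither motif, Mrpl22 holds both, Mrpl32 holds the Nrf1 letters on either strand with an overlapping pair, Mrpl17 holds the Nrf1 letters once, and Mrps27 holds the ETS letters on the reverse strand.

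Over the whole windows of 300 bases, the Nrf1 letters GCATGCGC stood in 8 of the 75 promoters of mitochondrial ribosomal protein genes (10.7%), against 4.93% of the promoters of tested protein-coding genes and 2.71% of all promoters in the table. The ETS letters CCGGAAG stood in 26 (34.7%), against 16.6% and 8.86%. AAGATGGC, a core of the sites of the zinc-finger factor Yy1, stood in 12 (16%), against 4.16% and 2.75%. At least 1 of these 3 motifs was present in 38 of the 75 (50.7%), against 23.5% and 13.3%. TATAAA, the TATA box, stood in 5 (6.67%), against 7.57% and 13.6%. All motifs were searched on both strands, and the median GC content was 58.7% in the promoters of the mitochondrial ribosomal protein genes, against 60.3% and 52.7%. Genes with and without the letters were also set side by side by their response. The median log2 fold change (with supernatant minus PEEK alone) was −0.07 over the 26 genes with the ETS letters and −0.07 over the 43 without, and −0.01 over the 8 with the Nrf1 letters and −0.08 over the 61 without. These shares are descriptions of letters in fixed windows and were not tested.

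All 78 genes were expressed in every library. The lowest single count was 267 and the highest 6321, and all 78 passed the filter on low counts that left 18177 genes for testing. Levels between genes are given as FPKM, which divides the count by gene length. The median over the 78 genes was 9.78 FPKM, the interquartile range was 6.79 to 16.3 FPKM, and the highest gene stood 36.2-fold above the lowest. Mrpl12, a protein of the flexible stalk of the large subunit, was the highest, at 42.5 ± 6.68 FPKM with supernatant and 40.0 ± 3.87 FPKM on PEEK alone (SD, n = 3 each). Mrpl10, which anchors that stalk, was next at 38.0 ± 2.47 FPKM with supernatant and 37.3 ± 1.40 FPKM on PEEK alone. The small-subunit protein gene Mrps7 followed at 33.6 ± 3.48 FPKM with supernatant and 33.7 ± 1.60 FPKM on PEEK alone. The large-subunit genes Mrpl18 (31.3 ± 2.13 FPKM with supernatant and 33.0 ± 2.29 FPKM on PEEK alone) and Mrpl34 (31.1 ± 2.80 FPKM with supernatant and 30.5 ± 2.05 FPKM on PEEK alone) came after it, and then Mrps23 of the small subunit (27.8 ± 2.85 FPKM with supernatant and 29.2 ± 1.09 FPKM on PEEK alone). These 6 levels lie close enough that neighbours in the order overlap within their SD, apart from the step between Mrpl10 and Mrps7 on PEEK alone.

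The low end held Mrpl48 of the large subunit's central protuberance at 1.04 ± 0.238 FPKM with supernatant and 1.24 ± 0.137 FPKM on PEEK alone. Mrpl23, a protein at the exit of the tunnel for the growing chain, stood at 1.15 ± 0.0626 FPKM with supernatant and 1.38 ± 0.152 FPKM on PEEK alone. The mitochondria-specific Mrpl57 stood at 2.14 ± 0.494 FPKM with supernatant and 2.37 ± 0.394 FPKM on PEEK alone. Mrpl47, a large-subunit protein also near the tunnel exit, stood at 2.66 ± 0.0714 FPKM with supernatant and 2.83 ± 0.451 FPKM on PEEK alone. These are transcript levels, while the proteins themselves enter the finished ribosome in fixed proportion. The lengths by which the deposited FPKM values divide differ widely between genes: 8451 bases for Mrpl48 and 625 bases for Mrpl34, which bears on the order of these levels. A processed pseudogene of Mrpl48 had 144 to 158 counts with supernatant and 117 to 237 on PEEK alone. The counting of reads shared by a gene and such a copy was not given in the sources used here, and the level of Mrpl48 is uncertain to that extent. The other 4 pseudogenes of the family in the table had at most 26 counts in any library.

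**Figure D1:**
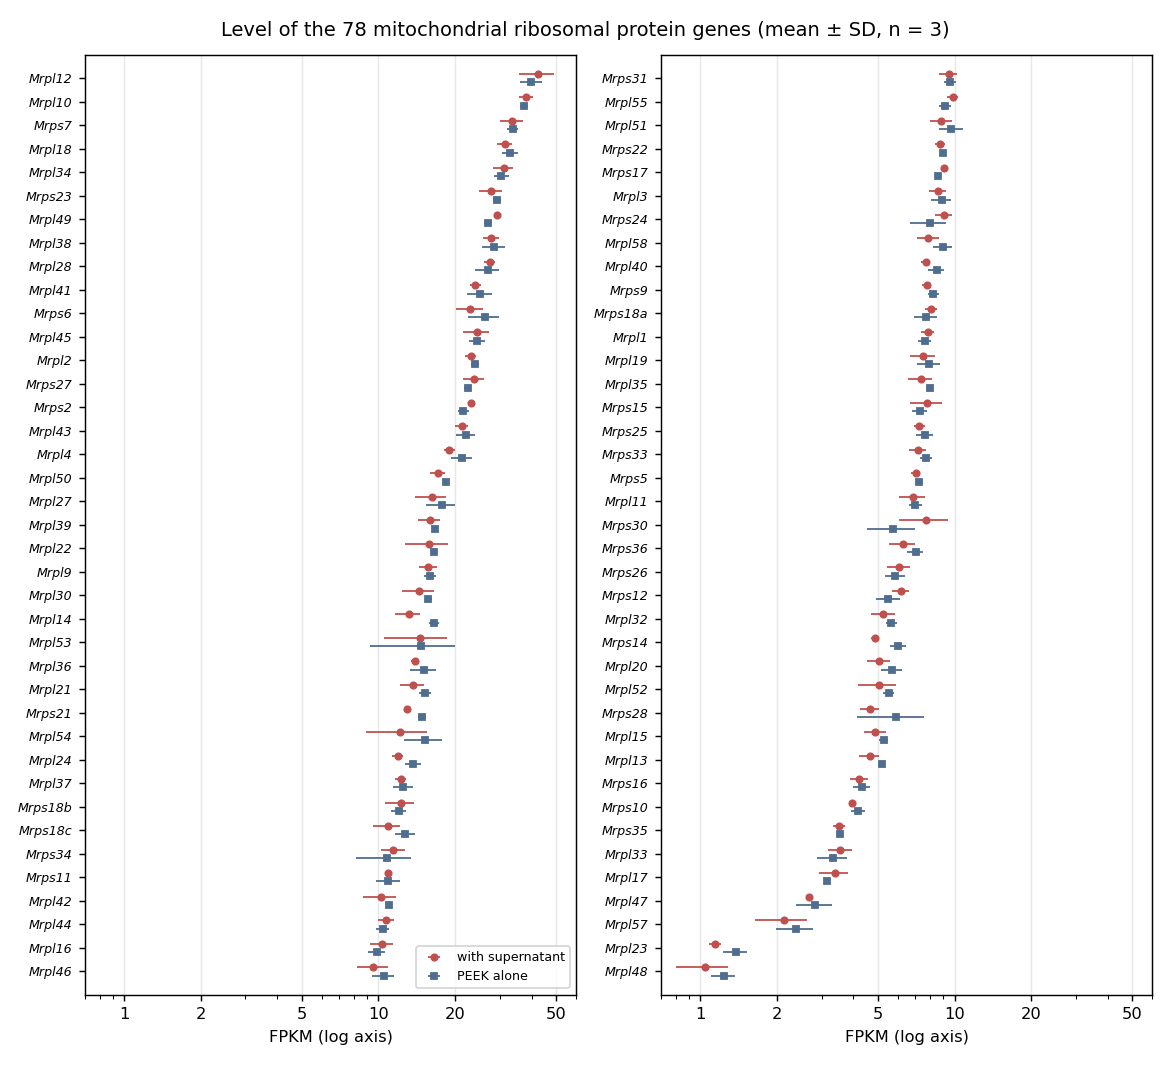
Level of each of the 78 mitochondrial ribosomal protein genes in FPKM (log axis), with supernatant (red circles) and on PEEK alone (blue squares), as mean ± SD of 3 libraries, ordered by the mean of all 6. The order runs between Mrpl12 at the top left and Mrpl48 at the bottom right, and the error bars of most pairs overlap.

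Before the comparison, the libraries were set side by side. In each group 2 of the 3 titles name a biological replicate and the labels go no further, so the p-values below cover the spread among these libraries, which may be technical. Replicates are numbered here by library name, so replicate 1 of each group is the library whose title names no biological replicate. Supernatant replicate 1 stood apart from the other 5 libraries in some genes of the osteoblast lineage, and not all in 1 direction. Alpl, an alkaline phosphatase needed for mineralization, was at 83.7 CPM there and at 16.2 to 29.7 CPM in the other 5 (CPM, counts scaled to the normalized library size). Sp7, an osteoblast transcription factor, was at 30.3 CPM there and at 9.46 to 15.3 CPM in the others. Spp1, which encodes the matrix protein osteopontin, went the other way, at 189 CPM there and at 331 to 409 CPM in the others. Col1a1 (23.4 CPM there, 12.04 to 23.1 CPM in the others) and Ibsp (1.80 CPM there, 0.20 to 1.695 CPM in the others) were barely outside the range of the other 5. Runx2 was also highest in supernatant replicate 1, at 235 CPM against 138 to 167 CPM in the others. Of the 8 markers of the osteoblast lineage, Runx2 and the collagen gene Col1a2 (8098 CPM there, 4523 to 7920 CPM in the others) were plainly present in every library. Bglap, a marker of late osteoblasts, had 17 counts there and 0 to 2 in the others. Of 9 macrophage markers, 6 were in the table. Ptprc, the pan-leukocyte CD45 gene, was at 0 in 5 of the 6 libraries and at 4 counts in the other. Fcer1g had 0 to 7 counts. The 4 that could be tested were present in every library. Over the 6 libraries Cd14 had 434 to 708 counts, Cd68 95 to 274, Lyz2 8 to 66 and Csf1r 20 to 46. These 4 summed to 7.61, 11.8 and 10.6 CPM with supernatant and to 9.58, 13.0 and 12.3 CPM on PEEK alone. Cd14 made up most of the sum in every library. In bulk RNA of this kind, fewer cells of a type and less RNA per cell cannot be told apart.

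The comparison asked whether transcripts of the mitoribosome's proteins differed in pre-osteoblasts given macrophage supernatant. No mitochondrial ribosomal protein gene passed the threshold in either direction. The edgeR quasi-likelihood test with Benjamini-Hochberg adjustment over all tested genes called 0 of the 78 at an adjusted p under 0.05, where 3 of 18177 genes were called in all (0.0165%), and the smallest adjusted p of a member was 0.446. At an unadjusted p under 0.05, 3 of the 78 were lower with supernatant (3.85%, against 4.3% of all tested genes) and 0 were higher (against 4.65%). DESeq2 called 0 of the 78 as well, where it called 294 of 29255 genes (1%). At an unadjusted p under 0.05 DESeq2 put 2 of the 78 lower (against 2.86% of genes) and 1 higher (against 3.63%). With supernatant, all 3 libraries lay below all 3 on PEEK alone for 7 of the 78 (8.97%, against 7.36% of all tested genes) and above them for 1 (1.28%, against 7.83%). The lower 7 were Mrps14, Mrpl14, Mrpl24, Mrpl4, Mrpl23, Mrps21 and Mrpl50, and the higher 1 was Mrpl49. The shares of lower genes are near the background, so they give no result particular to these genes.

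The fitted values were small and leaned to the lower side. Of the 78 log2 fold changes 56 were below 0 (71.8%, against 51.7% of all tested genes). Their median was −0.08, against −0.01 over all tested genes, with an interquartile range of −0.14 to 0.01. They ranged from −0.35 (Mrps28) to 0.42 (Mrps30). The changes were smaller than 0.2 in size for 66 of the 78 (84.6%), against 59.2% of all tested genes, and the median standard error was 0.11, against 0.17. The 95% interval of the fold change lay within 1.5-fold in either direction for 70 of the 78 genes. The spread between libraries of a group was also narrow, with a median SD of 0.13 on the log2 scale, against 0.21 over all tested genes, many of which have far fewer counts.

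**Figure D2:**
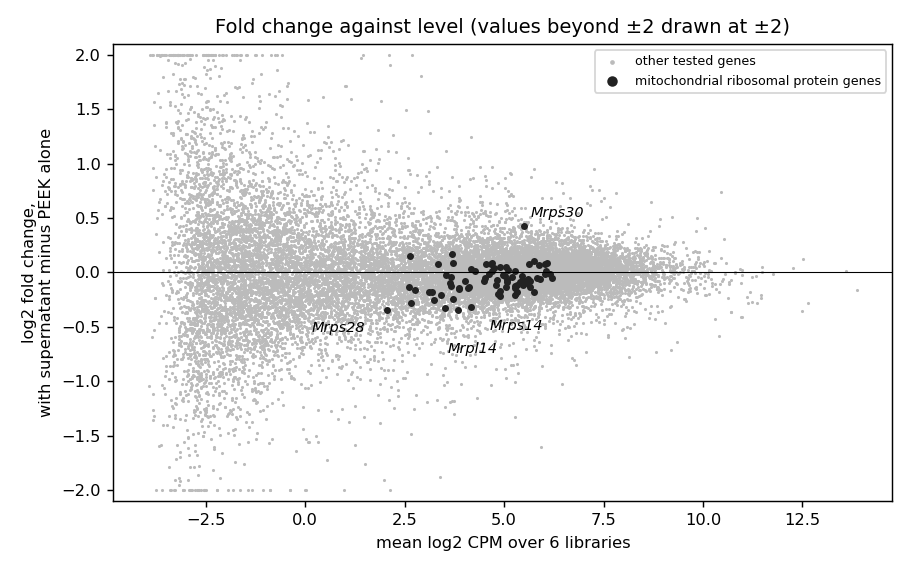
Log2 fold change (with supernatant minus PEEK alone) against the mean log2 CPM over the 6 libraries, for the 78 mitochondrial ribosomal protein genes (black) and the other tested genes (grey). The black points lie in the middle of the range of levels and, Mrps30 at 0.42 apart, within −0.35 to 0.17 on the vertical axis.

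The classes of protein were described apart and not tested against each other. The median log2 fold change was −0.09 over the 51 large-subunit genes, 38 of them below 0, and −0.04 over the 26 small-subunit genes, 17 of them below 0. Among large-subunit genes it was −0.09 for the 30 with a bacterial counterpart (21 below 0) and −0.09 for the 21 specific to mitochondria (17 below 0). Among small-subunit genes it was −0.05 for the 16 with a bacterial counterpart (11 below 0) and −0.03 for the 10 specific to mitochondria (6 below 0). Mrps36, outside the ribosome, was at −0.18 (SE 0.15).

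Most of this lean came with 1 library. Taken against the mean of PEEK alone, the median log2 deviation of the 78 genes was −0.18, −0.05 and 0.02 in supernatant replicates 1, 2 and 3 and −0.01, −0.05 and 0.04 in PEEK-alone replicates 1, 2 and 3. Supernatant replicate 1 held the lowest value of all 6 libraries for 49 of the 78 genes, and 66 of the 78 lay below the PEEK-alone mean there. PEEK-alone replicate 3 held the highest value for 29 of the 78, and 59 of the 78 lay above the PEEK-alone mean there. Without PEEK-alone replicate 3, 51 of the 78 log2 fold changes were below 0 and 27 above. Supernatant replicates 2 and 3 lay inside the range of the PEEK-alone libraries or within 0.01 of it. The summed level of the 78 genes was 2224, 2476 and 2565 CPM with supernatant, against 2523, 2410 and 2570 CPM on PEEK alone. As deposited FPKM, the sums were 930, 1001 and 1058 with supernatant, against 1040, 976 and 1065 on PEEK alone. The groups overlap in both sums. Without supernatant replicate 1 the median log2 fold change of the 78 genes was −0.01, with 42 below 0 and 36 above. This is the library with the high Alpl, Sp7 and Runx2 and the low Spp1 described above, and the part of that difference in the lean was not tested. The 78 genes have shorter lengths in the table than tested genes at large, with a median of 2468 bases against 3636. The rank correlation of the deviation with length over all tested genes was 0.07 in supernatant replicate 1, against −0.06 to 0.06 in the other 5 libraries. Over the 78 genes alone it was 0.19, 0.09 and −0.10 in supernatant replicates 1, 2 and 3 and 0.16, 0.19 and −0.26 in PEEK-alone replicates 1, 2 and 3. The genes of a library share its depth and composition, and the part of length in the lean was not tested.

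**Figure D3:**
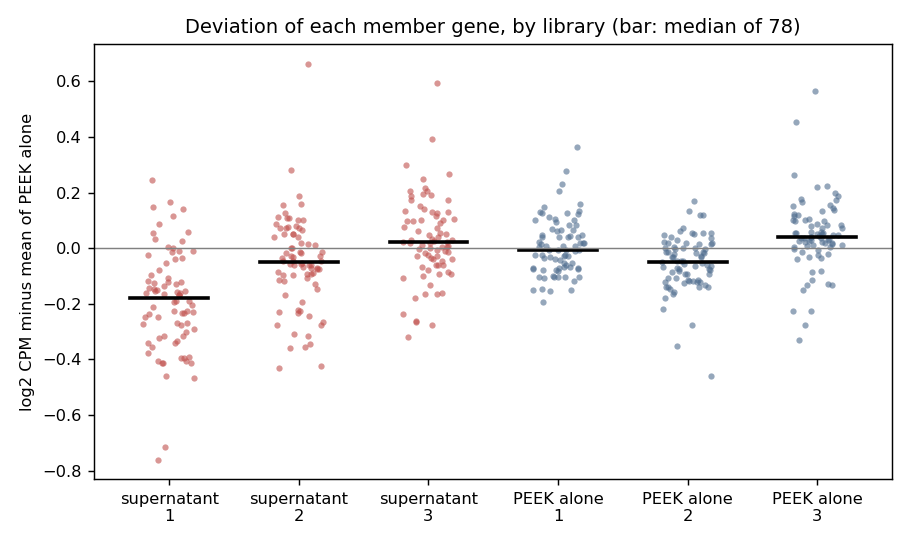
Deviation of each of the 78 genes (points) from its mean on PEEK alone, in log2 CPM, for supernatant replicates 1 to 3 (red) and PEEK-alone replicates 1 to 3 (blue), with the median of the 78 as a black bar. The bar of supernatant replicate 1 sits at −0.18 and those of the other 5 libraries between −0.05 and 0.04.

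Mrps14, a small-subunit protein with a bacterial counterpart in the head of the subunit, had the smallest p of the 78 genes. It was at 15.35, 16.7 and 16.7 CPM with supernatant, against 19.7, 19.0 and 21.95 CPM on PEEK alone. All 3 libraries with supernatant were below all 3 on PEEK alone, and replicate 1 did not stand out. The log2 fold change was −0.32 (SE 0.11, unadjusted p = 0.0165, edgeR adjusted p = 0.446), and −0.27 without supernatant replicate 1. Mrps14 (ENSMUSG00000058267) lies on chromosome 1 from 160022785 to 160029740 on the plus strand in the deposited coordinates (build not given in the sources used here). All values are for whole genes, with exons, introns and UTRs not separated, and no other gene of the table overlaps it.

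Mrpl14, a large-subunit protein at the face that meets the small subunit, was at 11.8, 12.1 and 14.6 CPM with supernatant, against 16.5, 15.6 and 16.8 CPM on PEEK alone. The groups did not overlap, and supernatant replicate 3 was about 1 CPM below the lowest library on PEEK alone. The log2 fold change was −0.35 (SE 0.12, unadjusted p = 0.0228, edgeR adjusted p = 0.483), and −0.28 without supernatant replicate 1. Mrpl14 (ENSMUSG00000023939) lies on chromosome 17 from 45997248 to 46009421, plus strand, with the start of Tmem63b 63 bases away on the other strand.

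Mrpl24, another large-subunit protein with a bacterial counterpart, was at 28.5, 27.0 and 27.2 CPM with supernatant, against 33.0, 29.4 and 33.8 CPM on PEEK alone. Again the groups did not overlap, with PEEK-alone replicate 2 the nearest. Its log2 fold change was −0.22 (SE 0.09, unadjusted p = 0.0431, edgeR adjusted p = 0.537). Mrpl24 (ENSMUSG00000019710; chromosome 3, 87826813 to 87830979, plus strand) overlaps Rrnad1 on the opposite strand, with the use of strand in counting not given in the sources used here. Rrnad1 itself was at 23.5 ± 5.85 CPM with supernatant and 22.9 ± 1.24 CPM on PEEK alone, a log2 fold change of 0.04.

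The other lower genes of small p were alike in size. Mrpl4, which lines the tunnel for the growing chain, was at 51.1 ± 1.80 CPM with supernatant and 57.7 ± 4.92 CPM on PEEK alone, with no overlap (log2 fold change −0.18). Mrpl13 of the large subunit was at 35.4, 42.25 and 35.5 CPM with supernatant, against 41.9, 42.65 and 43.6 CPM on PEEK alone, with supernatant replicate 2 inside the range of PEEK alone. The tunnel-exit gene Mrpl23 was at 5.78 ± 0.215 CPM with supernatant and 7.00 ± 0.838 CPM on PEEK alone, and the small-subunit gene Mrps21 at 9.87 ± 0.487 CPM with supernatant and 11.4 ± 0.38 CPM on PEEK alone. Neither pair of groups overlapped, the log2 fold changes were −0.28 and −0.21, and the unadjusted p were 0.107 and 0.121.

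Mrps28, a small-subunit protein, had the most negative log2 fold change of the 78 at −0.35 (SE 0.23, unadjusted p = 0.172). It was at 3.48, 3.61 and 4.14 CPM with supernatant, against 4.31, 3.63 and 6.36 CPM on PEEK alone, and the difference came mostly from PEEK-alone replicate 3. Mrpl58, a peptidyl-tRNA hydrolase built into the large subunit, was at 23.6, 28.6 and 29.1 CPM with supernatant, against 28.8, 29.9 and 34.5 CPM on PEEK alone (log2 fold change −0.20, SE 0.12). Its supernatant replicates 1 and 2 lay below all 3 libraries on PEEK alone, and replicate 3 did not. The large-subunit gene Mrpl50 was at 33.6, 39.3 and 38.35 CPM with supernatant, against 39.4, 40.1 and 42.1 CPM on PEEK alone, without overlap but with its nearest libraries almost level (log2 fold change −0.13, SE 0.09). At the other end stood genes whose libraries hardly differed. Mrps22 of the small subunit was at 33.6, 36.7 and 37.6 CPM with supernatant, against 37.0, 37.1 and 37.3 CPM on PEEK alone, with a 95% interval of the log2 fold change of −0.24 to 0.14. Mrps35 was at 31.7, 29.7 and 31.9 CPM with supernatant, against 30.5, 32.0 and 32.5 CPM on PEEK alone, with an interval of −0.22 to 0.16.

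Mrps30 ran the other way and furthest. Its protein, specific to mitochondria, belongs to the large subunit despite its name. It was at 38.7, 61.7 and 58.9 CPM with supernatant, against 47.3, 40.4 and 31.0 CPM on PEEK alone. The groups overlapped because supernatant replicate 1 lay below replicates 1 and 2 of PEEK alone, while supernatant replicates 2 and 3 were above all 3. The log2 fold change was 0.42 (SE 0.20, unadjusted p = 0.068, edgeR adjusted p = 0.595). Over the fits that each left out 1 library, it ran from 0.275 to 0.62. The highest of these came without supernatant replicate 1, at 0.62 (SE 0.16, unadjusted p = 0.0050, edgeR adjusted p = 0.111). That fit put more genes at an unadjusted p under 0.05, 3257 of 18819 against 1627 of 18177 with all libraries. Mrps30 (ENSMUSG00000021731; chromosome 13, 118514917 to 118523788, minus strand) overlaps B430218F22Rik on the opposite strand, which was at 0.23 to 0.35 CPM with supernatant and 0.08 to 0.32 CPM on PEEK alone.

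Mrpl49, a large-subunit protein specific to mitochondria, was the higher gene without overlap. It was at 56.6, 55.1 and 57.3 CPM with supernatant, against 49.8, 52.8 and 54.4 CPM on PEEK alone. The nearest libraries were less than 1 CPM apart, and the log2 fold change of 0.11 (SE 0.08) had an edgeR adjusted p of 0.732. The next genes on the higher side by p were all small-subunit genes except Mrpl17. Mrps2 was at 69.2 ± 1.06 CPM with supernatant and 65.2 ± 2.72 CPM on PEEK alone. Mrps24 was at 13.7 ± 1.03 CPM with supernatant and 12.1 ± 1.93 CPM on PEEK alone. Mrps12, a protein of the decoding centre, was at 6.56 ± 0.407 CPM with supernatant and 5.92 ± 0.582 CPM on PEEK alone. Mrps17, Mrpl17 and Mrps27 had log2 fold changes of 0.07, 0.08 and 0.07, and the groups of all 5 small-subunit genes and of Mrpl17 overlapped.

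Mrps18a, Mrps18b and Mrps18c are paralogs of a single bacterial small-subunit protein, and their proteins take different places: Mrps18a in the large subunit, Mrps18b and Mrps18c in the small one. Mrps18c was at 11.1, 11.2 and 13.8 CPM with supernatant, against 14.7, 12.9 and 15.2 CPM on PEEK alone, where supernatant replicate 3 was above PEEK-alone replicate 2. Its log2 fold change was −0.24 (SE 0.14, edgeR adjusted p = 0.651). Mrps18a was at 31.3, 31.6 and 28.95 CPM with supernatant, against 32.1, 29.9 and 26.55 CPM on PEEK alone, and its log2 fold change was 0.05 (SE 0.10). Mrps18b was at 22.3, 27.0 and 29.7 CPM with supernatant, against 27.6, 26.0 and 24.6 CPM on PEEK alone, and its log2 fold change was 0.01 (SE 0.12). The groups overlapped in all 3 paralogs, and differences among the paralogs were not tested.

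**Figure D4:**
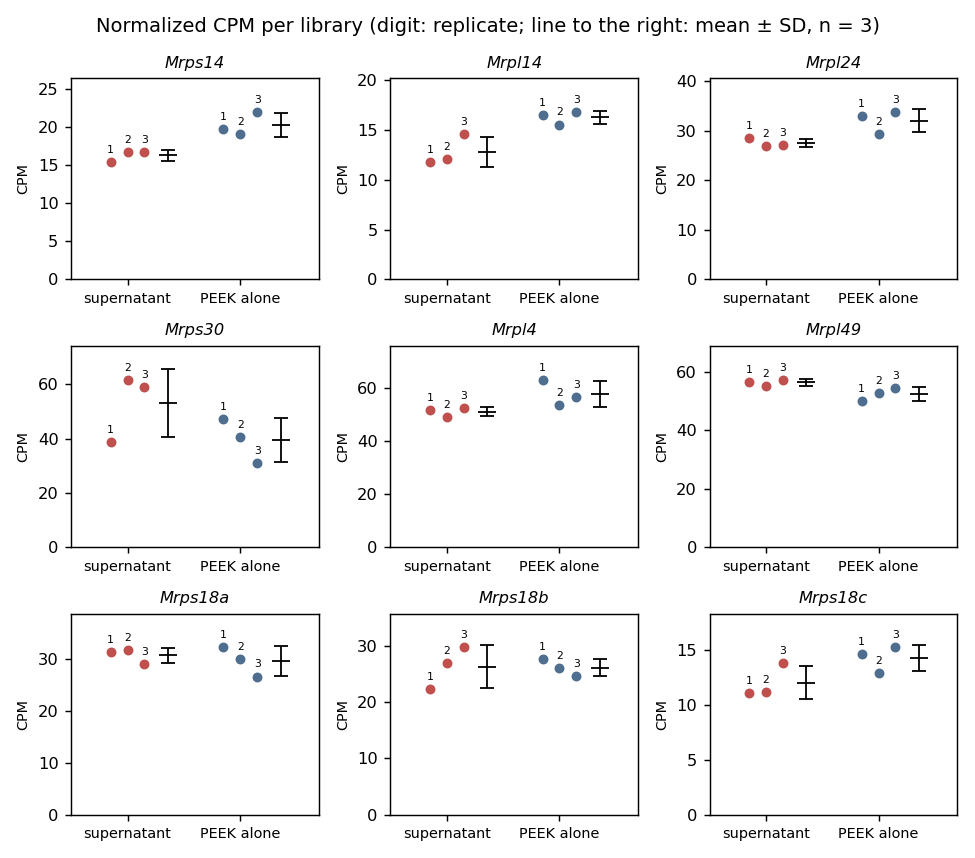
Normalized CPM (axis starting at 0) in each library, with supernatant (red) and on PEEK alone (blue), for 9 mitochondrial ribosomal protein genes; digits give the replicate and the line beside the points the mean ± SD of 3. Mrps14, Mrpl14, Mrpl24, Mrpl4 and Mrpl49 show no overlap of the groups, and Mrps30 and the 3 Mrps18 paralogs do.

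The widest spread within groups was that of Mrpl53, a large-subunit protein specific to mitochondria, with 11.8, 8.57 and 15.1 CPM with supernatant and 10.7, 8.36 and 17.0 CPM on PEEK alone. Its replicates 3 were the highest and its replicates 2 the lowest of either group, and its log2 fold change of −0.02 had an SE of 0.29. Mrpl54, of the same class, was at 7.60, 10.1 and 13.4 CPM with supernatant and 14.85, 10.65 and 13.5 CPM on PEEK alone (log2 fold change −0.33, SE 0.22). Mrpl48 was at 6.36, 10.01 and 10.03 CPM with supernatant and 11.7, 9.58 and 10.2 CPM on PEEK alone (log2 fold change −0.25, SE 0.20), and its lowest value was in supernatant replicate 1. Without that library it was at −0.06.

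The mitochondrial ribosomal protein genes share an arrangement in the genome more often than tested coding genes at large. For 32 of the 78 (41.0%, against 15.6% of 13351 tested coding genes), a protein-coding gene on the other strand starts within 1000 bases, in the coordinates of the deposited table. Of the 32 members, 20 begin apart from their neighbour and 12 overlap it at the starts. Mrpl46 and Mrps11 form such a pair with each other, and the other 30 neighbours are not members. Of these 30, 5 carry the Gene Ontology term for the mitochondrion (16.7%, against 9.83% of tested coding genes): Twnk, the mitochondrial DNA helicase, beside Mrpl43; Sars2, a mitochondrial tRNA synthetase, beside Mrps12; Ndufs6 and Ndufb5, subunits of respiratory complex I, beside Mrpl36 and Mrpl47; and Ptcd2 beside Mrps27. The neighbours' log2 fold changes had a median of 0.01, with 15 below 0 and 15 above, and 0 had an edgeR adjusted p under 0.05. An unadjusted p under 0.05 was reached by 3 of the 30, against 1627 of 18177 tested genes. Mrpl14 at −0.35 stood beside Tmem63b at 0.05, and Mrpl49 at 0.11 beside Fau, a cytosolic ribosomal protein gene, at −0.11. The share of members that overlap any other listed gene, 46.2%, was close to the 47.7% of tested coding genes. For 31 members the overlapping gene is on the opposite strand, and their counts are uncertain to the extent that reads were counted without strand.

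Lists of other genes of mitochondrial translation, of mitochondrial DNA and RNA upkeep and of nuclear regulators were read beside the 78 genes. Of these listed genes, 0 passed the edgeR threshold. The 5 tested subunits of the mitoribosome without an Mrp symbol had a median log2 fold change of 0.01. None had an unadjusted p under 0.05, which 1627 of 18177 tested genes had. Chchd1 of the small subunit had the smallest p, at 14.1, 16.7 and 16.6 CPM with supernatant, against 19.05, 15.5 and 19.9 CPM on PEEK alone, with overlapping groups (log2 fold change −0.20, SE 0.13). The 27 genes of mitoribosome assembly and rRNA modification had a median of 0.03, with 16 above 0. Fastkd2, which takes part in assembly of the large subunit, was the 1 at an unadjusted p under 0.05, at 27.4, 33.6 and 28.7 CPM with supernatant, against 34.25, 37.0 and 35.05 CPM on PEEK alone. Its groups did not overlap (log2 fold change −0.24, SE 0.10, unadjusted p = 0.0411, edgeR adjusted p = 0.532). The 14 translation factors had a median of 0.00. Mrrf, the mitochondrial ribosome recycling factor, was at 17.7, 23.1 and 20.2 CPM with supernatant, against 23.1, 27.9 and 25.2 CPM on PEEK alone (edgeR adjusted p = 0.510 at a log2 fold change of −0.32, SE 0.13), so that supernatant replicate 2 all but met the lowest library on PEEK alone.

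The 22 genes of mitochondrial tRNA charging were aminoacyl-tRNA synthetases, apart from the amidotransferase subunits Qrsl1, Gatb and Gatc. Their median log2 fold change was 0.03, with 16 above 0. Mars2, the synthetase for methionine, was at 24.2, 26.2 and 25.35 CPM with supernatant, against 22.6, 17.8 and 22.02 CPM on PEEK alone. Its groups did not overlap (edgeR adjusted p = 0.531 at a log2 fold change of 0.28, SE 0.12). The 12 genes of mitochondrial DNA and RNA upkeep had a median of 0.09, with 10 above 0 and 2 at an unadjusted p under 0.05. These were 1 lower and 1 higher, against 4.3% and 4.65% of all tested genes. Mgme1, a mitochondrial DNA exonuclease, was at 16.3, 20.6 and 19.2 CPM with supernatant, against 13.9, 13.5 and 12.7 CPM on PEEK alone. All 3 libraries with supernatant were above all 3 on PEEK alone, and the log2 fold change was 0.48 (SE 0.12, edgeR adjusted p = 0.305; DESeq2 adjusted p = 0.0448). Ssbp1, the mitochondrial single-stranded DNA-binding protein, was at 38.4, 37.3 and 40.4 CPM with supernatant, against 47.1, 46.75 and 45.4 CPM on PEEK alone, also with no overlap (edgeR adjusted p = 0.384 at a log2 fold change of −0.26, SE 0.08).

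The 9 nuclear regulators of mitochondrial genes had a median log2 fold change of 0.12, with 6 above 0. An unadjusted p under 0.05 was reached by 2 of the 9, both higher, where 4.65% of all tested genes were higher at that p. Myc, a transcription factor with many ribosome-related targets, was at 267, 256.5 and 256 CPM with supernatant, against 224, 221 and 215.5 CPM on PEEK alone, with no overlap (log2 fold change 0.24, SE 0.07, unadjusted p = 0.00794, edgeR adjusted p = 0.370). Pprc1, a coactivator that works with Nrf1, was at 148, 159 and 158 CPM with supernatant, against 145, 127 and 124 CPM on PEEK alone (log2 fold change 0.23, SE 0.09, edgeR adjusted p = 0.492). On the same list Ppargc1a and Ppargc1b went the other way, at log2 fold changes of −0.64 (SE 0.50) and −0.48 (SE 0.39). Their levels were low, at most 1.185 and 0.975 CPM in any library. Of the factors whose motifs were counted above, Nrf1 was at 40.7, 44.1 and 41.7 CPM with supernatant, against 40.2, 39.3 and 45.3 CPM on PEEK alone (log2 fold change 0.02, SE 0.09), with overlapping groups. Gabpa had a log2 fold change of −0.03 (SE 0.09) and Yy1 one of 0.12 (SE 0.07).

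The messages that the mitoribosome translates leaned lower too. All 13 mitochondrially encoded mRNAs had a log2 fold change below 0, with a median of −0.24. An unadjusted p under 0.05 was reached by 3 of the 13, where 4.3% of all tested genes were lower at that p. These messages come from a single genome transcribed in long shared precursors, so they are not 13 separate observations. mt-Co2, a subunit of cytochrome c oxidase, was at 1584, 2009 and 1703 CPM with supernatant, against 2079, 2459 and 2500 CPM on PEEK alone, with no overlap (log2 fold change −0.41, SE 0.12, edgeR adjusted p = 0.384). mt-Co3 had −0.37 (SE 0.12, edgeR adjusted p = 0.420) and mt-Cytb, of complex III, −0.36 (SE 0.14, edgeR adjusted p = 0.502). The libraries did not follow the pattern of the nuclear genes. The 13 messages summed to 32780, 43830 and 31900 CPM with supernatant, against 35910, 46130 and 45750 CPM on PEEK alone, so supernatant replicates 1 and 3 were the low pair, where the mitochondrial ribosomal protein genes were low in replicate 1 but not in replicate 3. The RNAs of the mitoribosome itself, mt-Rnr1 and mt-Rnr2, were measured after poly(A) selection and spread widely, at 66.6 to 222 and 536 to 1191 CPM with supernatant, against 80.5 to 114 and 592 to 885 CPM on PEEK alone.

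**Figure D5:**
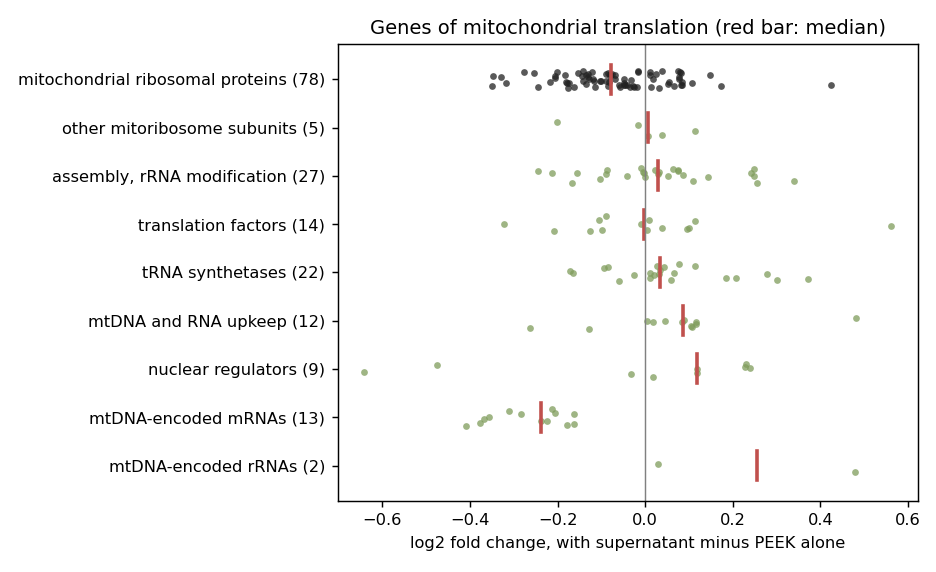
Log2 fold change (with supernatant minus PEEK alone) of each tested gene (points) in the mitochondrial ribosomal protein genes and in 8 lists of other genes. The lists cover mitochondrial translation, mitochondrial DNA and RNA upkeep and nuclear regulators, with the number of genes in parentheses and the median as a red bar. The list drawn as tRNA synthetases also holds Qrsl1, Gatb and Gatc. The median is −0.08 for the 78 genes and −0.24 for the mtDNA-encoded mRNAs, all of which lie left of 0.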

How the data were processed

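Paired-end dUTP libraries with molecular identifiers were made from poly(A) RNA, per the labels' protocols. The submitters' processing notes name HISAT2 2.2.1 and Cutadapt 1.9, with the build, annotation, counting tool and use of strand and identifiers not given in the sources used here. The deposited table held a raw count and an FPKM per gene and library, per the file headers. The deposited FPKM equalled the count scaled by library and by 1 fixed length per gene (that length varied by at most 1.88% between libraries over 11285 genes of more than 200 counts), so FPKM is no independent measure; it was used for levels between genes.

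Counts were tested with edgeR 4.0.16 in R 4.3.3 (TMM normalization, filterByExpr with minimum count 10 and minimum total 15, group as the only term, Benjamini-Hochberg over 18177 genes, adjusted p under 0.05). CPM are per TMM-scaled library, and a prior count of 2 was used for log2 CPM deviations. Alternatives were DESeq2 1.42.0, its size factors, other filters, limma 3.58.1 on log2(FPKM + 1), a replicate block, leaving out each library, and other thresholds; the tests were checked on simulated counts. Same-numbered libraries correlated at −0.03, −0.01 and 0.02 in their deviations and were not treated as pairs. The genes, lists and tests were chosen with earlier results of these data known. Genes were named by level (6 highest, 4 lowest), smallest p (8 in each direction), spread (4, among those of at least 5 CPM on average), as the Mrps18 paralogs, and up to 3 of smallest p per list. Mrpl50, Mrpl58, Mrps22, Mrps28, Mrps35, Mrps36, Ppargc1a, Ppargc1b, the neighbours, overlapping genes, factors whose motifs were searched and the motif examples were named beside this rule after their values were seen. Lists were marker genes of osteoblasts and macrophages and 8 groups of mitochondrial translation, mitochondrial DNA and RNA upkeep and nuclear regulators. Sequences are RefSeq's, and intervals cover the model's error between these libraries.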

Additional observations from a re-analysis of the deposited data

How the results depend on the processing

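No mitochondrial ribosomal protein gene was called in any setting run, including adjusted p limits of 0.01 and 0.10, and their median log2 fold change was below 0 in all, between −0.11 (without supernatant replicate 3) and −0.01 (without supernatant replicate 1); it was −0.04 without PEEK-alone replicate 3. Members at an unadjusted p under 0.05 were 1 higher with DESeq2, and 5 lower and 2 higher with limma on unfiltered log2(FPKM + 1). Leaving out 1 library gave 0 to 5 lower (5 without supernatant replicate 3, 1 and 0 without PEEK-alone replicates 1 and 3) and 0 to 2 higher (2 without supernatant replicate 1, 1 without PEEK-alone replicate 1). All genes at that p, in either direction, were 3257 of 18819 and 1215 of 18849 without supernatant replicates 1 and 3. They were 2132 of 18885 and 1020 of 18903 without PEEK-alone replicates 1 and 3, and 1627 of 18177 with all libraries. Over all genes 3 were called, against 294 with DESeq2, 17 among genes of at least 1 CPM, 0 with no filter by edgeR (1903 at an unadjusted p under 0.05) or limma (2492), and 0 to 199 without 1 library: 199 and 5 without supernatant replicates 1 and 2, and 1, 0 and 0 without PEEK-alone replicates 1, 2 and 3. With the replicate block 0 genes were called (1330 at an unadjusted p under 0.05), the median was −0.075 with 2 members lower, and Mrpl53 and mt-Rnr2 were at 0.00 and −0.06. With limma, filtered or not, Mrpl53 was at 0.012 (0.014 with a pseudocount of 0.1) and mt-Rnr2 at −0.045 with either pseudocount. Signs turned when 1 library was left out for Mrpl12 (−0.011 to 0.22), Mrpl10 (−0.032 to 0.088), Mrps7 (−0.07 to 0.091), Mrpl34 (−0.036 to 0.11), Mrps23 (−0.17 to 0.015), Mrpl47 (−0.17 to 0.041), Mrpl53 (−0.24 to 0.31), Mrps18a (−0.021 to 0.12), Mrps18b (−0.082 to 0.13), mt-Rnr1 (−0.09 to 0.81) and mt-Rnr2 (−0.46 to 0.23). The cause was not tested. Of 726 values of the 52 genes named by the rule above over all settings, 697 kept their direction and side of the threshold. Genes named beside that rule were not followed over the settings, so neither this count nor the list of turned signs covers them. With 3 libraries per group the median standard error of a member was 0.11 on the log2 scale and 66 of the 78 values were below 0.2 in size, so differences of that size were mostly not detectable here.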
